A study of Mus musculus with 40 samples.

Results

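Gene expression was compared between interscapular brown adipose tissue (BAT) and inguinal white adipose tissue (iWAT) of mice held at thermoneutrality, with 5 libraries of each tissue and every gene in the table. Both groups came from adult wild-type C57BL/6 mice on a standard diet, housed at 22 °C and then moved to 30 °C for 24 h before the tissues were snap-frozen. No allele, agent or cold exposure was involved in either group, and thermoneutrality here is a single day after housing at a cooler temperature. The 10 libraries belong to a series of 40, 8 groups of 5 formed by 4 tissues and 2 exposures. Of 53863 gene symbols, 30215 had a count in these 10 libraries, and the 16404 that passed the filter on low counts were tested. The labels state neither the sex of the mice nor whether BAT and iWAT libraries of the same number came from 1 mouse, nor that each library is a separate animal, so p-values measure the spread between these libraries.

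Brown fat burns fuel to make heat. Its adipocytes are packed with mitochondria whose inner membrane carries uncoupling protein 1 (UCP1), which lets protons flow back without making ATP, and sympathetic nerves switch the process on in the cold through β-adrenergic receptors and cyclic AMP. White adipocytes store triglyceride and secrete hormones such as leptin. The inguinal depot is white fat that can form UCP1-positive beige adipocytes in the cold, so at thermoneutrality the comparison contrasts the depots with little of that stimulus.

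Total expected counts ran from 49821546 to 84697511 over the 10 libraries. Levels are CPM, counts scaled to a common library size, on library sizes scaled by the trimmed mean of M-values (TMM), and differences are log2 values of BAT minus iWAT with the standard error of the fit. Calls are genes whose p-value stayed below 0.05 after Benjamini-Hochberg adjustment in edgeR's quasi-likelihood F-test, the source of every adjusted p given with a log2 difference. Called genes were 59.8% of those tested, 9808 in all, with 4782 higher in BAT (29.2%) and 5026 higher in iWAT (30.6%). A second test for differences past 2-fold called 3209 genes (19.6%), 1141 genes higher in BAT (6.96%) and 2068 higher in iWAT (12.6%). The groups did not overlap at 7730 genes, 47.1% of those tested. The balance of directions rests on the scaling. With library totals as the only scaling the median difference of all genes moved from −0.01 to −0.81, and 1417 genes were higher in BAT against 11561 in iWAT, so that 10.9% of the calls were higher in BAT in place of 48.8%. All differences below are relative to the TMM scale. For the lists and markers below, counts of the main fit stand beside 29.2% higher in BAT and 30.6% higher in iWAT. Their counts with library totals stand beside 1417 and 11561 of 16404 tested genes. Of the genes named below as higher in BAT, 9 kept their sign but were no longer called with library totals as the only scaling. Their differences were 0.05 to 0.44 (adjusted p from 0.0574 to 0.857). These 9 were Pparg, Slc25a44, Atp5g2, Suclg2, Gpat4, Cdh5, Nrip2, F3 and Igf2. Akt2 (−0.30), Col8a1 (−0.03) and Pdgfrb (−0.21) turned sign and were not called, and Cd81 was called higher in iWAT at −0.25 (adjusted p = 0.0176). On that scale 6 genes given below as not called kept their negative sign and were called higher in iWAT. They were Acsl1, Alb, Dgat1, Hoxa7, Hoxd8 and Plin1, at −0.89 to −2.59. Fabp4, Cebpa, Ckb, Nfia and Hoxb3, also given below as not called, turned sign and were called higher in iWAT, at −0.47 to −0.69.

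**Figure D1:**
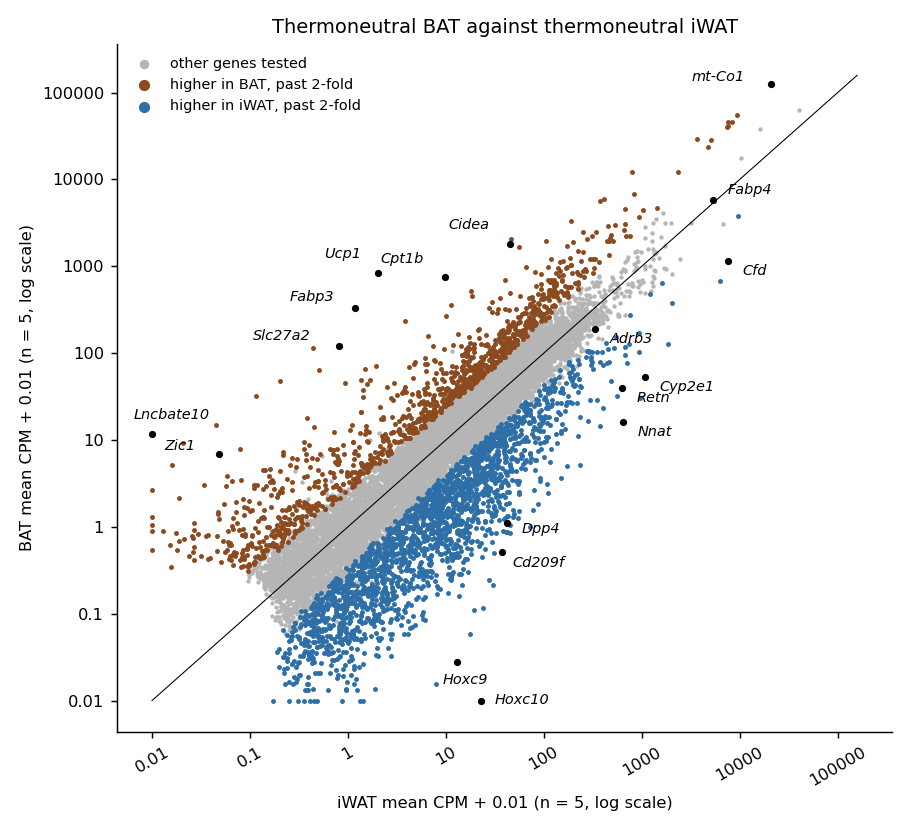
Mean level of each of the 16404 tested genes in iWAT (horizontal axis) and BAT (vertical axis), in CPM + 0.01 on log scales, 5 libraries a tissue; coloured points are past 2-fold (1141 in brown for BAT, 2068 in blue for iWAT) and the diagonal marks equal levels. Ucp1, Fabp3 and Zic1 lie far above the diagonal, Hoxc9, Hoxc10 and Cd209f far below it, and Fabp4 lies close to it.

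Libraries also differed in transcripts of other cell types. All 10 B lymphocyte markers and all 10 T lymphocyte markers were called higher in iWAT, and the summed B lymphocyte level ran from 15.6 to 41.2 CPM in BAT and from 325 to 1750 CPM in iWAT, with iWAT 1 and iWAT 5 highest. Skeletal muscle markers summed to between 245 and 6030 CPM in BAT and between 23.1 and 14100 CPM in iWAT, with the highest value of each tissue in library 3. Where leaving out iWAT 1 and iWAT 5, or both libraries of number 3, changed the call of a gene named below, the value without them is given beside it. In bulk tissue, fewer cells of a type and less RNA per cell cannot be told apart.

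Genes that define brown adipocytes had the highest median difference of the 25 gene lists compared. Of 26 members 24 were tested, 22 were called higher in BAT, where 29.2% of all tested genes were, and 2 higher in iWAT. The median difference was 4.25 against −0.01 over all tested genes. The list was compiled from genes already known to mark brown fat, so its direction is no independent evidence. Ucp1 stood at 534, 1190, 963, 1010 and 512 CPM in BAT and at 6.09, 1.23, 1.35, 0.882 and 0.548 CPM in iWAT. Every BAT library was far above every iWAT library, and iWAT 1 held the most Ucp1 of its group. The difference was 8.70 ± 0.81 (adjusted p = 8.32e-06), a 417-fold higher level in BAT, and it was 9.70 without iWAT 1.

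Cidea, a lipid droplet protein of brown adipocytes, was at 1790, 1720, 1980, 1630 and 1960 CPM in BAT and at 67.6, 58.7, 33.5, 33.7 and 30.3 CPM in iWAT. The groups were tight and did not overlap, with a difference of 5.34 ± 0.27 (adjusted p = 7.11e-08). Cpt1b, the muscle-type carnitine palmitoyltransferase that admits fatty acids to mitochondria, was at 768, 792, 775, 672 and 713 CPM in BAT against 12.5, 6.64, 17.3, 8.09 and 4.8 CPM in iWAT. Its level varied little in BAT and most in iWAT, where library 3 was highest, and the difference was 6.23 ± 0.37 (adjusted p = 2.21e-07). Fabp3, a cytosolic fatty acid binding protein of heart, muscle and brown fat, was at 200, 347, 393, 217 and 498 CPM in BAT and at 0.399, 0.172, 4.32, 0.284 and 0.653 CPM in iWAT. The iWAT value of library 3 exceeded the rest of its group, and the difference of 8.13 ± 1.02 (adjusted p = 8.82e-05) became 9.74 without that library.

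Muscle also expresses Fabp3, Cpt1b and the cytochrome oxidase subunit Cox7a1. Their differences are therefore also given with the muscle markers accounted for and without both libraries of number 3. With the muscle markers as a covariate the differences of Fabp3, Cpt1b and Cox7a1 were 7.42, 5.79 and 5.45. Without both libraries of number 3 they were 9.66, 6.5 and 6.28, but that fit does not remove muscle from the comparison. The mean muscle marker level of the remaining libraries ran from 3.1 to 7.39 in BAT and from −1.9 to 1.98 in iWAT (log2 CPM). All 15 muscle markers were called higher in BAT there.

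Several brown fat genes of other function were also higher in BAT, some with close agreement between libraries. Letmd1, which encodes a mitochondrial inner membrane protein, was at 457, 454, 424, 455 and 386 CPM in BAT and at 36.6, 37.9, 37.7, 34.7 and 32.6 CPM in iWAT, the smallest p among genes higher in BAT by the naming rule. Its difference was 3.60 ± 0.09 (adjusted p = 6.48e-09), and the spread within each tissue was small beside it. Pank1, a pantothenate kinase that starts coenzyme A synthesis, differed by 4.99 ± 0.18 (adjusted p = 1.22e-08). Slc27a2, a fatty acid transport protein and very long-chain acyl-CoA synthetase, ran from 90.3 to 171 CPM in BAT and from 0.526 to 1.33 CPM in iWAT, a difference of 7.23 ± 0.33 (adjusted p = 5.18e-08). Kcnk3, a potassium channel of brown adipocytes, P2rx5, an ATP-gated channel, and S100b, a neurotrophic protein, differed by 2.52, 3.45 and 3.49. Elovl3, a fatty acid elongase, differed by 4.48, from a mean of 8.72 CPM in BAT and 0.39 CPM in iWAT, and by 3.44 without BAT 4, its highest library.

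The largest BAT excesses by the naming rule reached beyond the classical list. The noncoding transcript Lncbate10 was at 3.43, 11.9, 13.9, 4.28 and 25.2 CPM in BAT and had 0 counts in all 5 iWAT libraries. Against a floor of 3 counts over the 5 iWAT libraries it was at least 1410-fold higher in BAT. Kng2, a kininogen, was at 83.1, 126, 126, 124 and 119 CPM in BAT and at 0.142, 0.422, 0.592, 0.597 and 0.379 CPM in iWAT, a difference of 8.07 ± 0.33 (adjusted p = 3.47e-08). Lgr6, an R-spondin receptor, ran from 28.3 to 61.9 CPM in BAT and from 0.0711 to 0.484 CPM in iWAT, a difference of 7.92 ± 0.50 (adjusted p = 5.09e-07). None of these 3 genes overlapped between the tissues, and Lgr6 differed by 8.55 without iWAT 1, its highest iWAT library. Coq8a, an atypical kinase needed for coenzyme Q synthesis, differed by 5.49 ± 0.23, Me3, a mitochondrial malic enzyme, by 5.46 ± 0.47, and Fer1l6, a ferlin-family gene, by 5.59 ± 0.57. Without iWAT 3 the differences of Me3 and Fer1l6 were 6.07 and 6.24. Ntrk3, a neurotrophin receptor, was at 419, 464, 336, 433 and 313 CPM in BAT and at 25, 34.4, 33.4, 32.5 and 22.4 CPM in iWAT, a difference of 3.73 ± 0.17 (adjusted p = 4.33e-08). Sirt3, a mitochondrial deacetylase, differed by 2.54 ± 0.09.

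**Figure D2:**
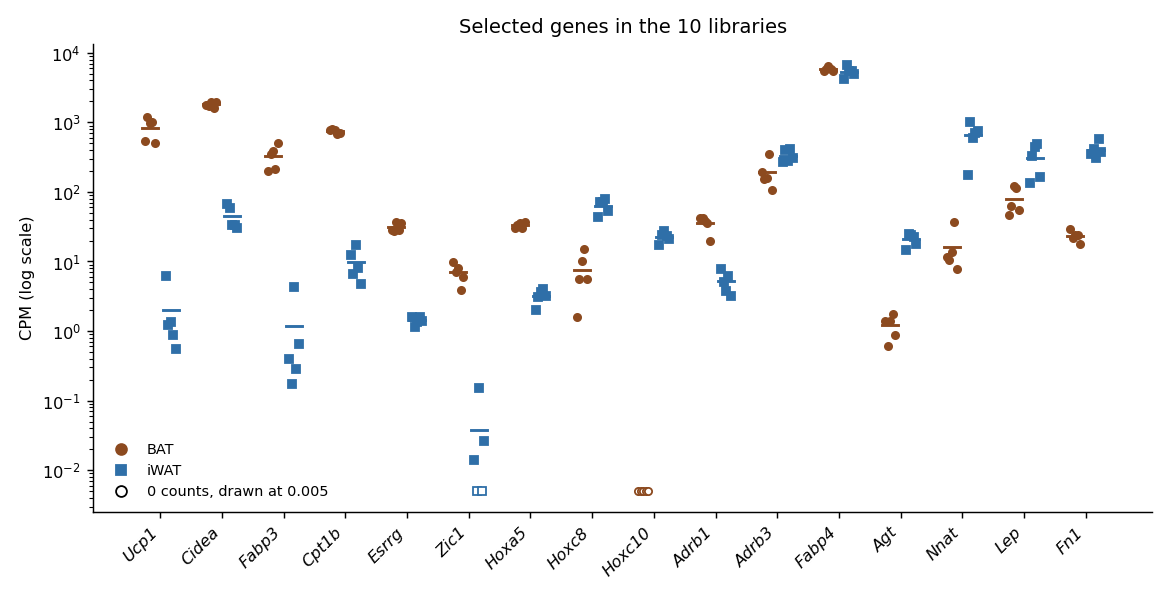
CPM in each library (log scale) of selected genes, with BAT as brown circles, iWAT as blue squares and the group mean (n = 5) as a bar; open symbols are 0 counts, drawn at 0.005 CPM. Ucp1 is 417-fold higher in BAT, Fabp4 and Adrb3 overlap, and Hoxc10 has 0 counts in every BAT library.

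The 2 exceptions in the brown adipocyte list ran the other way. Adrb3, the β3-adrenergic receptor of adipocytes, was at 191, 154, 160, 345 and 108 CPM in BAT and at 265, 397, 275, 413 and 312 CPM in iWAT. The groups overlapped through BAT 4, and the difference was −0.80 ± 0.28 (adjusted p = 0.0294). That call was lost in 6 of the 10 fits that leave out 1 library, those without BAT 1, 2, 3 or 5 or iWAT 2 or 4, where the difference lay between −0.64 and −0.78. It was also lost without iWAT 1 and iWAT 5 (−0.93, adjusted p = 0.0551) and without both libraries of number 3 (−0.82, adjusted p = 0.0642). Epsti1, chosen for comment after its values were seen, is known as an interferon-response gene. It was at 108, 34.2, 14.4, 14.2 and 51.9 CPM in iWAT, a difference of −4.15, or −3.54 without iWAT 1. Libraries iWAT 1 and iWAT 5, which held the most lymphocyte transcripts, were also highest in Epsti1, and the part of those cells in it was not tested. Bmp8b and Gpr3, also on the list, had too few counts to be tested.

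Regulators of brown fat formation and of mitochondrial genes differed less uniformly. Of 28 members 12 were called higher in BAT, 7 higher in iWAT and 9 were not called, with a median of 0.56. With library totals as the only scaling the counts were 9 and 13. Over all tested genes 29.2% were called higher in BAT and 30.6% higher in iWAT in the main fit. With library totals 1417 and 11561 of 16404 tested genes were. The nuclear receptors of oxidative metabolism led the BAT side. Esrrg, an oestrogen-related receptor that activates mitochondrial genes, was at 28.8, 27.7, 37.0, 28.2 and 35.9 CPM in BAT and at 1.59, 1.16, 1.37, 1.58 and 1.41 CPM in iWAT. The lowest BAT library was well above the highest iWAT library, and the difference was 4.47 ± 0.14 (adjusted p = 1.05e-08). Ppara, the fatty acid sensing receptor that drives oxidation genes, was at 105, 181, 169, 135 and 209 CPM against 5.07, 7.62, 6.84, 7.54 and 6.15 CPM, a difference of 4.59 ± 0.21 (adjusted p = 4.15e-08). Esrra, its relative in the same family as Esrrg, differed by 1.76 ± 0.13.

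The PGC-1 coactivators, which bind these receptors, were both higher in BAT. Ppargc1b was at 91.0, 83.1, 66.8, 76.5 and 127 CPM in BAT and at 5.18, 5.50, 6.94, 6.37 and 6.66 CPM in iWAT, a difference of 3.86 ± 0.18 (adjusted p = 4.71e-08). Ppargc1a, the member induced by cold, was at 26.1, 32.9, 33.9, 29.3 and 42.5 CPM in BAT and at 4.37, 4.42, 11, 8.83 and 8.94 CPM in iWAT, a difference of 2.13 ± 0.27 (adjusted p = 6.03e-05). Neither gene overlapped between the tissues. Per unit of exon length, Ppargc1a made up 18.7% ± 3.24 (SD, n = 5) of the pair in BAT and 41.2% ± 7.38 (SD, n = 5) in iWAT (exact two-sided permutation test, p = 0.00794, the smallest that 5 against 5 allows, adjusted p = 0.00882 over 20 pairs).

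The factors that commit cells to the brown lineage were higher in BAT by smaller margins. Prdm16 was at 45.3, 60.8, 30.1, 29.9 and 35.6 CPM in BAT and at 11.5, 13.3, 16.7, 14.7 and 13.1 CPM in iWAT, without overlap, and differed by 1.54 ± 0.20 (adjusted p = 6.33e-05). Ebf2 differed by 1.37 ± 0.20 (adjusted p = 0.000129). Pparg, the receptor that every adipocyte needs, ran from 183 to 335 CPM in BAT and from 80.2 to 201 CPM in iWAT. Its groups overlapped, its difference was 0.84 ± 0.27 (adjusted p = 0.0199), and the call was lost without BAT 5 (adjusted p = 0.0502) and without iWAT 5 (adjusted p = 0.0509). Without both iWAT 1 and iWAT 5 it was 0.56 (adjusted p = 0.0989). Lhx8, described as a brown fat marker, was not called at 0.65 (adjusted p = 0.0581), but was called without BAT 4 at 0.83 (adjusted p = 0.012). Cebpa, a master regulator of adipocyte formation, and Nfia, a factor described as acting with Pparg at brown fat genes, were not called, at 0.10 (adjusted p = 0.691) and 0.32 (adjusted p = 0.0696), and Nfia was called without iWAT 4 at 0.40 (adjusted p = 0.0347). On the iWAT side, Nrip1, a corepressor of oxidative genes, differed by −2.25, Gata6 by −2.26 and Zfp423, a factor that maintains white adipocytes, by −0.88.

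Genes that record where along the body a tissue arose included several with 0 or near 0 counts in 1 of the tissues. Zinc finger genes of the Zic family and Hox genes are set early in development, and adult fat keeps depot-specific combinations. Zic1, known from brown fat and its embryonic precursors, was at 9.97, 7.02, 7.93, 3.89 and 6.03 CPM in BAT and at 0.0142, 0, 0.151, 0 and 0.0261 CPM in iWAT. Every BAT library was above every iWAT library, and the difference of 7.36 ± 0.75 (adjusted p = 1.36e-05) was 9.09 without iWAT 3, the iWAT library with the most Zic1. Zic4, its neighbour, was at 1.45, 1.02, 0.887, 0.615 and 1.17 CPM in BAT and had 0 counts in all 5 iWAT libraries, so it was at least 124-fold higher in BAT.

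Zic1 and Zic4 lie on opposite strands of mouse chromosome 9, and their RefSeq starts are 3204 bases apart on GRCm38.p6. The 250 bases before each start are shown because both genes had counts in every BAT library and 0 or near 0 counts in iWAT. The Zic1 window is chr9:91365769-91366018 on the minus strand with 66.0% G and C and 27 CpG pairs, and the Zic4 window is chr9:91368722-91368971 on the plus strand with 44.4% G and C and 4 CpG pairs. Neither window held any of the 5 motifs searched, so no letters are in capitals.
Zic1: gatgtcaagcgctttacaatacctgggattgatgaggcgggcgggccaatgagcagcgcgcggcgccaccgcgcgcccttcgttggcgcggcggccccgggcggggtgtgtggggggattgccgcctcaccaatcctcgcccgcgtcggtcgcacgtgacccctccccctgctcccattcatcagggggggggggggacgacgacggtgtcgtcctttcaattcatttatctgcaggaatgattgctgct
Zic4: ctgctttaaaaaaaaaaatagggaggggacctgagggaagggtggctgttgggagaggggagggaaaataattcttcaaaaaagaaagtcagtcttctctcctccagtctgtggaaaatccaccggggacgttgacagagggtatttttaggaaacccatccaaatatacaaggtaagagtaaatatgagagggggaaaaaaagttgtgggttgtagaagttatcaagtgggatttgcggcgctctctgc

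The Hox genes split by their position within the cluster. Low paralogue numbers are used toward the head and high numbers toward the tail. Of 39 genes 27 were tested, with 10 called higher in BAT, 14 higher in iWAT and 3 not called. The shares over all tested genes were 29.2% and 30.6%. With library totals as the only scaling the list counts were 5 and 19, beside 1417 and 11561 of 16404 tested genes. Among paralogues 1 to 6, 10 were higher in BAT, 4 higher in iWAT (Hoxb5 at −0.66, Hoxb6 at −0.62, Hoxc6 at −0.50 and Hoxd4 at −0.65) and 1 was not called (Hoxb3 at 0.29). Among paralogues 7 to 13, 0 were higher in BAT, 10 were higher in iWAT and 2 were not called (Hoxa7 at −0.10 and Hoxd8 at −0.22). Of the 4 low-numbered genes higher in iWAT, Hoxb6, Hoxc6 and Hoxd4 lost the call in 3, 2 and 5 of the 10 fits that leave out 1 library, with adjusted p between 0.0516 and 0.0770. Without both libraries of number 3, Hoxb5, Hoxb6 and Hoxd4 lost it, at −0.45, −0.47 and −0.54 (adjusted p = 0.0814, 0.101 and 0.114). This grouping by paralogue number was made after the values were seen.

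Hoxa5 was at 30.2, 32.9, 35.9, 30.4 and 37.5 CPM in BAT and at 2.04, 3.06, 3.60, 4.05 and 3.20 CPM in iWAT, a difference of 3.39 ± 0.17 (adjusted p = 7.11e-08). Its neighbour Hoxa4 differed by 2.93 ± 0.16 (adjusted p = 1.09e-07), and neither overlapped between the tissues. Hoxc10 had 0 counts in all 5 BAT libraries and 17.1, 24.4, 27.4, 23.1 and 20.9 CPM in iWAT. It was at least 1840-fold higher in iWAT against a floor of 3 counts over the 5 BAT libraries. Hoxa10 had 1 count in BAT, in library 5, and 5.72, 7.09, 10.3, 9.17 and 7.10 CPM in iWAT. The ratio of iWAT to BAT was 1940, with a counting interval from 348 to 76800 (95%, exact, counting error only). Hoxc9 was at 0.0434, 0.0186, 0, 0 and 0.0267 CPM in BAT and at 9.55, 13.9, 13.6, 15.0 and 12.5 CPM in iWAT, a difference of −9.44 ± 0.41 (adjusted p = 3.24e-08), or −10.04 without BAT 1. Hoxc8, the next gene, was present in both tissues, at 1.59, 5.54, 10.3, 15.1 and 5.58 CPM in BAT and at 43.3, 70.6, 71.8, 77.9 and 52.9 CPM in iWAT. Its difference was −3.05 ± 0.49 (adjusted p = 0.000357), so along the HoxC cluster the iWAT excess widened from Hoxc6 (−0.50) through Hoxc8 and Hoxc9 to Hoxc10.

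**Figure D3:**
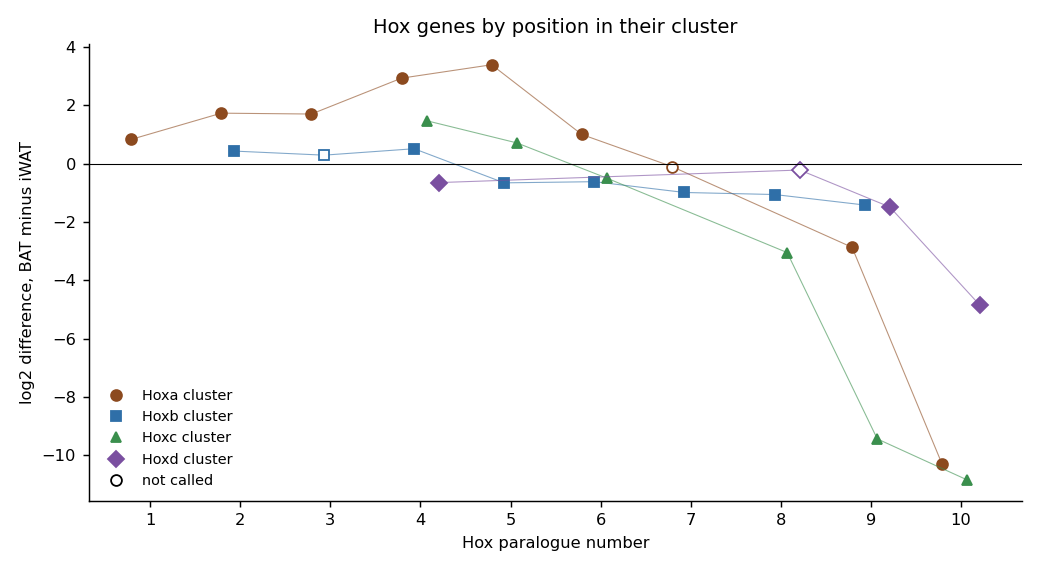
Log2 difference of BAT minus iWAT (vertical axis) for each of the 27 tested Hox genes by paralogue number (horizontal axis), with 1 colour and shape per cluster, open symbols for genes not called, and Hoxc10 at its lower bound. The 10 genes higher in BAT have numbers up to 6, and all 10 called genes numbered 7 or above are below 0.

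Of 43 other positional factors 24 were tested, 8 were higher in BAT and 7 higher in iWAT, or 3 and 12 with library totals as the only scaling. These counts are near the 29.2% and 30.6% called over all genes, so single members are described and not a shift of the list. Tbx5, a forelimb and heart factor, was higher in BAT at 1.56 ± 0.18 (adjusted p = 2.71e-05). Emx2 was higher in iWAT at −5.11 ± 0.39 (adjusted p = 1.12e-06), with 3.46 to 6.47 CPM there and 0.0683 to 0.269 CPM in BAT. Tbx15, a factor of limb-level mesenchyme and subcutaneous fat, was at 6.75, 4.59, 13.6, 5.01 and 10.4 CPM in BAT and at 12.1, 17.1, 37.5, 23.3 and 17.4 CPM in iWAT. Its groups overlapped slightly, and library 3 was highest in both. The difference was −1.41 ± 0.37 (adjusted p = 0.00729). Irx1 and Irx2, named after their values were seen, were higher in iWAT at −4.56 and −2.58, and at −6.30 and −3.77 without BAT 1, which held the most of both in its group. Tcf21 and Wt1, markers of visceral fat, were at or near 0 in both tissues, with 0 counts in BAT and means of 0.00504 and 0.0139 CPM in iWAT.

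In epididymal fat (eWAT) at thermoneutrality, on a scale set over all 40 libraries, these 2 visceral markers averaged 3.22 ± 0.655 and 11.7 ± 2.86 CPM (SD, n = 5). Hoxc10 averaged 0.345 ± 0.0999 CPM there, Hoxc9 3.38 ± 1.24 CPM and Hoxc8 66.5 ± 15.1 CPM. Tbx15 averaged 0.0598 ± 0.0232 CPM and Zic4 had 0 counts. Hoxc10 was thus scarce in both other depots, while Hoxc8 was abundant in both white depots. No test was run on these levels.

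Mitochondrial transcripts filled a far greater share of the BAT libraries. Transcripts of the mitochondrial genome made up 24.7, 26.6, 25.3, 22.3 and 31.3% of counts in BAT and 6.45, 7.39, 6.82, 6.97 and 8.76% in iWAT. The lowest BAT share was above the highest iWAT share, with means of 26.0% ± 3.33 and 7.28% ± 0.896 (SD, n = 5 each; exact two-sided permutation test, p = 0.00794, the smallest possible). All 13 mitochondrially encoded proteins were called higher in BAT, with a median difference of 2.7. The mt-Nd2 transcript, a complex I subunit, was at 24400, 28500, 31300, 26000 and 36900 CPM in BAT and at 3340, 3800, 3710, 3730 and 3870 CPM in iWAT, a difference of 2.99 ± 0.14 (adjusted p = 4.61e-08). The mt-Cytb transcript differed by 2.55 ± 0.13 (adjusted p = 8.11e-08).

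Nuclear copies of mitochondrial sequence took part of these counts. In BAT only 6.82% of the counts shared by mt-Atp6 and its nuclear copy Gm10925 were assigned to mt-Atp6, and 2.23% in iWAT. The difference of mt-Atp6 alone, 4.14, is therefore uncertain, and the sum of the pair had a log2 ratio of means of 2.52. The corresponding sums were 2.43 for mt-Co2 with Gm28661, 2.47 for mt-Co3 with Gm28437, 2.59 for mt-Nd4l with Gm10222 and 2.77 for mt-Nd3 with Gm28438. With 11 such copies added, the mitochondrial share was 37.2% ± 4.27 in BAT and 10.8% ± 1.41 in iWAT (SD, n = 5 each).

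Nuclear genes of the respiratory chain were higher in BAT almost as one block. Of 81 tested subunits 78 were called higher in BAT, 2 higher in iWAT and 1 was not called, with a median of 2.10. Their summed share of counts was 3.16% ± 0.102 in BAT and 1.26% ± 0.111 in iWAT (SD, n = 5 each). Complex I was represented by Ndufv1, at 663, 662, 762, 665 and 769 CPM in BAT and 93.2, 124, 128, 108 and 98.4 CPM in iWAT, a difference of 2.67 ± 0.12 (adjusted p = 3.93e-08). Uqcrc2 of complex III differed by 2.35 ± 0.10 and Cox7b of complex IV by 2.80 ± 0.12. In complex II the members Sdha, Sdhb, Sdhc and Sdhd differed by 2.13, 2.64, 1.90 and 2.19. The groups did not overlap for any of Ndufv1, Ndufa10, Uqcrc2 and Cox7b.

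The exceptions were in the ATP synthase. Atp5g1 and Atp5g3 were higher in iWAT, at −1.16 and −0.74, whereas Atp5a1, Atp5b and Atp5d, subunits of its catalytic head, were higher in BAT at 2.18, 2.10 and 2.18, and Atp5g2 at 0.98. Atp5g1, Atp5g2 and Atp5g3 encode the same mature membrane-ring subunit, a protein described as limiting for ATP synthase assembly in brown fat, and how reads were divided among them is uncertain. Per unit of exon length, Atp5g3 made up 38.2% ± 2.03 of the Atp5g3 and Atp5g2 pair in BAT and 66.8% ± 4.06 in iWAT (SD, n = 5 each; exact permutation p = 0.00794, adjusted p = 0.00882). Cox6a2, a muscle isoform, was not called at 1.10 (adjusted p = 0.515). Without the muscle-rich library iWAT 3 it was called higher in BAT at 3.87 (adjusted p = 0.00906), and without both libraries of number 3 at 3.14 (adjusted p = 0.0207). In both of these fits all 15 muscle markers were called higher in BAT as well.

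Isoform balance within other gene pairs differed too. Over 20 pairs compared per unit of exon length by exact two-sided permutation tests, 18 passed after adjustment, each with p = 0.00794, the smallest possible, and adjusted p = 0.00882. The 20 pairs were chosen and not drawn at random. Many hold a gene called higher in BAT, such as Cox7a1, Cpt1b, Fabp3, Cidea, Plin5 and Esrrg. Any pair whose groups did not overlap reaches the smallest value of the permutation test. Among single tested genes 47.1% did not overlap. The count of 18 thus depends on the choice of pairs and is no independent evidence. The percentages depend on the exon length used, that of all annotated exons of a gene, so only the contrast between tissues is read. Cox7a1 made up 56.6% ± 1.58 of Cox7a1 and Cox7a2 in BAT and 7.71% ± 3.42 in iWAT (SD, n = 5 each). Cox8b made up 53.9% ± 2.06 of Cox8b and Cox8a in BAT and 11% ± 3.73 in iWAT. Cpt1b made up 99.0% ± 0.153 of Cpt1b and Cpt1a in BAT and 32.1% ± 13 in iWAT, where it reached 53.3% in the muscle-rich library 3. Ldha, the lactate dehydrogenase subunit of glycolytic tissues, made up 50.1% ± 5.69 of Ldha and Ldhb in BAT and 89.3% ± 2.24 in iWAT. Cidea made up 85.4% ± 2.29 of Cidea and Cidec in BAT and 5.75% ± 2.30 in iWAT. The pairs that did not pass were Cox6a2 with Cox6a1 (adjusted p = 0.857) and Dgat1 with Dgat2 (adjusted p = 0.208).

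Promoters of respiratory genes are known to carry sites for the nuclear respiratory factor NRF1. In RefSeq promoters of 250 bases the NRF1 letters (GCGCA, any base, then GCGC), on either strand, stood in 13 of 67 respiratory chain genes with a promoter (19.4%), in 3 of 15 genes of the tricarboxylic acid cycle and in 0 of 19 brown adipocyte genes. They stood in 8.32% of 11846 tested genes with a promoter, in 7.85% of 764 genes past 2-fold in BAT and in 2.41% of 1452 genes past 2-fold in iWAT. The estrogen-related receptor letters TNAAGGTCA stood in 2.99% of the respiratory chain genes and 0.912% of tested genes. Other letters searched on both strands were AANATGGCG for YY1, TATAAA for the TATA box and TGACGTCA for the cyclic AMP response element. A match is a description of letters and not a site. The iWAT-side windows also held fewer CpG pairs, with a median of 7 against 14 in BAT-side windows.

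Promoters of Ndufb4, a complex I subunit, and Sdhd, a complex II subunit, are shown as the examples of that motif, with Ucp1 and Cox7a1 as brown adipocyte genes that held none of the 5 motifs. All are on GRCm38.p6, written 5′ to 3′, with capitals for motif matches. The Ndufb4 window, chr16:37654369-37654618 on the minus strand, holds 3 NRF1 matches and 1 estrogen-related receptor match. The Sdhd window, chr9:50603850-50604099 on the minus strand, holds 1 NRF1 match. The Ucp1 window is chr8:83290098-83290347 and the Cox7a1 window chr7:30183921-30184170, both on the plus strand. Where genes have several starts, such a window can lie within another transcript, which was not tested. The bases just after the window were found in a GENCODE transcript of the same gene for Ndufb4, Cox7a1, Zic1 and Zic4. They were not found for Sdhd and Ucp1, so the RefSeq starts of those genes were not matched in GENCODE.
Ndufb4: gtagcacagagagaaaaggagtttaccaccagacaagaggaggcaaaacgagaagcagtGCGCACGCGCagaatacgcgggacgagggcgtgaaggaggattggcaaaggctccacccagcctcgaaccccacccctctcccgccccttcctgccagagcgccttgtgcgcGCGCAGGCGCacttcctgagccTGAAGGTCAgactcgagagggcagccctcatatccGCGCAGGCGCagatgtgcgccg
Sdhd: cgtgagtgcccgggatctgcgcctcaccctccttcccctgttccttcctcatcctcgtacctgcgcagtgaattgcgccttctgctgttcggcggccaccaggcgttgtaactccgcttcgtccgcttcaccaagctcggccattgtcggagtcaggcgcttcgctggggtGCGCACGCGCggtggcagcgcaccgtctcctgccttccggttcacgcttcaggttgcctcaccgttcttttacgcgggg
Ucp1: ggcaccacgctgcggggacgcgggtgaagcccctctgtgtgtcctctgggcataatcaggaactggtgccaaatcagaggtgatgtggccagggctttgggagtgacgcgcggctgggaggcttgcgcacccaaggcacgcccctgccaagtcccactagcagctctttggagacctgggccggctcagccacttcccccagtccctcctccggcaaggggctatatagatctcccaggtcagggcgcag
Cox7a1: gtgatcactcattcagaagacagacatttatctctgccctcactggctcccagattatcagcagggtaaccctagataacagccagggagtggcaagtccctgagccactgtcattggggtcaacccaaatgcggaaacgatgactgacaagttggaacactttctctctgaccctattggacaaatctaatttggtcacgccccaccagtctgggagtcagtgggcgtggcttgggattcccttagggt

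Fuel oxidation followed the respiratory chain. All 18 genes of the tricarboxylic acid cycle were called higher in BAT, with a median of 2.54. Suclg1, a succinyl-CoA ligase subunit, was at 848, 897, 879, 791 and 916 CPM in BAT and at 74.7, 89.8, 96.5, 77.3 and 70.7 CPM in iWAT. The tissues were far apart, at 3.40 ± 0.12 (adjusted p = 1.22e-08). Idh3b and Idh3g, isocitrate dehydrogenase subunits, differed by 2.96 ± 0.11 and 2.56 ± 0.10. The smallest difference of the cycle was that of Suclg2, the GTP-forming partner of Suclg1, at 1.02.

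In fatty acid oxidation 22 of 26 genes were higher in BAT, 1 higher in iWAT and 3 were not called, with a median of 1.90. Acaa2, the thiolase of the last step, was at 2160, 1890, 1900, 1770 and 1970 CPM in BAT and at 95.1, 124, 112, 108 and 90.4 CPM in iWAT, a difference of 4.20 ± 0.13 (adjusted p = 1.05e-08). The acyl-CoA dehydrogenases Acadvl and Acadl differed by 3.33 ± 0.11 and 3.24 ± 0.11, and the carnitine carrier Slc25a20 by 3.13 ± 0.11. The gene higher in iWAT was Cpt1a, the liver-type isoform of the entry enzyme, at −1.38. Acsl1, an acyl-CoA synthetase, and the peroxisomal Ehhadh were among those not called, at −0.11 and 0.26. Without iWAT 1 and iWAT 5 Acsl1 was called higher in iWAT at −0.42 (adjusted p = 0.0325).

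**Figure D4:**
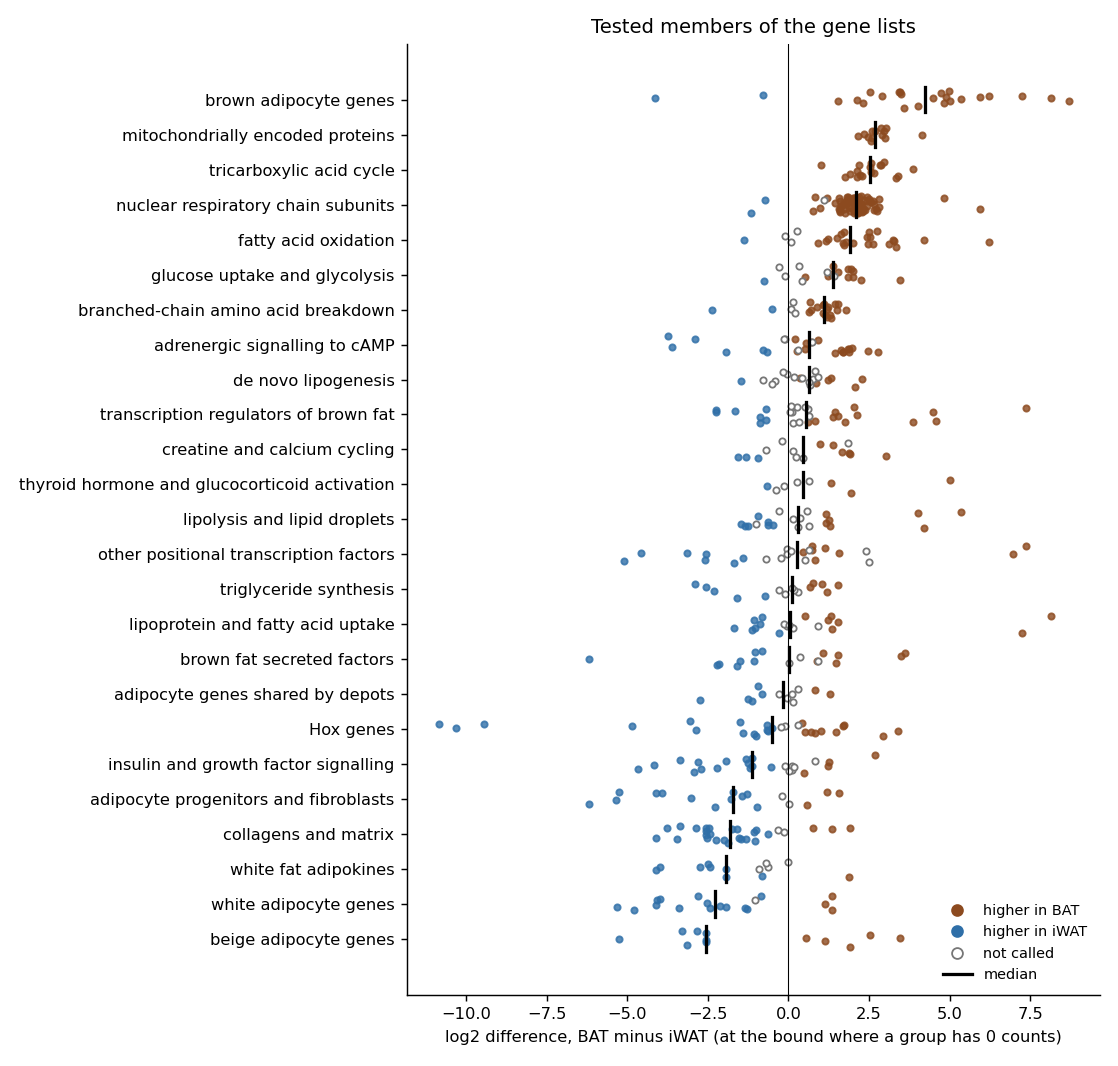
Log2 difference of BAT minus iWAT for every tested member of 25 gene lists, 1 point a gene, with a bar at each list's median; brown points were higher in BAT, blue points higher in iWAT and open points not called, and genes with 0 counts in a tissue are at their bound. The brown adipocyte list has the highest median (4.25) and the beige adipocyte list the lowest (−2.55).

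Pathways of fat synthesis and storage had members on both sides. In fatty acid synthesis 6 of 19 genes were higher in BAT, 1 higher in iWAT and 12 were not called, beside 29.2% and 30.6% over all tested genes. The median was 0.63, and 3 and 7 were called with library totals as the only scaling. Without iWAT 1 and iWAT 5 the counts were 3 and 2, and without BAT 4 or without iWAT 5 there were 3 higher in iWAT. Mlxipl, the glucose-responsive factor ChREBP, was at 361, 305, 283, 460 and 218 CPM in BAT and at 69.3, 79.9, 101, 89.7 and 53.9 CPM in iWAT, a difference of 2.05 ± 0.22 (adjusted p = 1.51e-05). Acacb, the acetyl-CoA carboxylase whose product restrains mitochondrial fatty acid entry, differed by 2.27 ± 0.24 (adjusted p = 1.45e-05). Fads1, a desaturase, was the member higher in iWAT at −1.46 ± 0.18. Fasn and Acly were not called, at 0.75 (adjusted p = 0.0934) and 0.66 (adjusted p = 0.211), and Fasn was called without BAT 5 at 0.95 (adjusted p = 0.0275).

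Triglyceride synthesis genes divided by isoform, with 5 of 15 higher in BAT, 5 higher in iWAT and 5 not called, or 1 and 9 with library totals as the only scaling. Gpat4 and Agpat3 were higher in BAT at 1.04 ± 0.13 and 1.54 ± 0.11. Agpat4 and the monoacylglycerol acyltransferase Mogat1 were higher in iWAT at −1.59 ± 0.18 and −2.32 ± 0.25, and Gpat3, named after its value was seen, at −2.56. Dgat1, which completes triglyceride, was not called at −0.11 (adjusted p = 0.566), but without iWAT 1 and iWAT 5 it was called higher in iWAT at −0.33 (adjusted p = 0.044).

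Of 21 lipolysis and lipid droplet genes 7 were higher in each tissue and 7 were not called, or 5 higher in BAT and 11 in iWAT with library totals as the only scaling. Pnpla2, the lipase ATGL, was at 3300, 3320, 3120, 2530 and 3530 CPM in BAT and at 1130, 1890, 1200, 1100 and 1140 CPM in iWAT, a difference of 1.29 ± 0.17 (adjusted p = 6.93e-05). Plin5, a droplet protein that ties droplets to mitochondria, was at 115, 123, 136, 127 and 106 CPM in BAT and at 7.90, 8.79, 7.59, 7.71 and 5.35 CPM in iWAT, a difference of 4.02 ± 0.14 (adjusted p = 1.22e-08). Cideb, a further droplet gene of the Cide family, was also higher in BAT at 4.22 ± 0.33. Cidec, the family member of white adipocytes, was at 484, 609, 534, 520 and 429 CPM in BAT and 1060, 1530, 1310, 1320 and 966 CPM in iWAT, a difference of −1.26 ± 0.15 (adjusted p = 2.61e-05). Neither Plin5 nor Cidec overlapped between the tissues. Plin1, the droplet coat of all adipocytes, was not called at −0.28, but without iWAT 1 and iWAT 5 it was called higher in iWAT at −0.56 (adjusted p = 0.01).

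For lipid uptake 7 of 20 genes were higher in each tissue, or 6 in BAT and 11 in iWAT with library totals as the only scaling. Such shares are near the 29.2% and 30.6% called over all genes, so the triglyceride, lipolysis and uptake lists show members that differ rather than a shift of the list. Lpl, lipoprotein lipase, was at 3270, 3110, 2720, 2940 and 3270 CPM in BAT and 4800, 7030, 7720, 8880 and 5260 CPM in iWAT, a difference of −1.14 ± 0.17 (adjusted p = 0.000173). Its chaperone Lmf1 was higher in BAT at 1.22 ± 0.10. Slc27a1, a fatty acid transporter, was higher in iWAT at −0.88 ± 0.12. Fabp4, the abundant binding protein of all adipocytes, was at 5470, 5900, 6420, 5940 and 5500 CPM in BAT and 4250, 6610, 5490, 5430 and 4900 CPM in iWAT. Its groups overlapped, and its difference was 0.13 ± 0.13 (adjusted p = 0.395), or −0.66 with library totals as the only scaling.

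Glycolysis leaned to BAT, with 12 of 19 genes higher there, 1 higher in iWAT and 6 not called, and a median of 1.39. Over all tested genes 29.2% were higher in BAT. The glycolysis counts were 10 and 4 with library totals as the only scaling, with a median of 0.55 against −0.81 over all tested genes. Ldhb, the lactate dehydrogenase subunit of oxidative tissues, was at 524, 508, 492, 428 and 542 CPM in BAT and at 40.8, 51.6, 47.3, 46.2 and 41.5 CPM in iWAT, a difference of 3.45 ± 0.11 (adjusted p = 1.08e-08). Gpi1, Pgk1 and Pgam1 differed by 1.84 ± 0.16, 1.99 ± 0.14 and 1.86 ± 0.13. The insulin-responsive transporter Slc2a4 was higher in BAT at 1.22, and the general transporter Slc2a1 was the member higher in iWAT at −0.75. Without both libraries of number 3, 15 of the 19 were higher in BAT, in a fit where all 15 muscle markers were too.

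In the breakdown of branched-chain amino acids 17 of 22 genes were higher in BAT and 2 higher in iWAT, with a median of 1.09. The shares over all tested genes were 29.2% and 30.6%. With library totals as the only scaling the list counts were 11 and 5, beside 1417 and 11561 of 16404 tested genes. Pccb, a propionyl-CoA carboxylase subunit, Hibch, a valine pathway hydrolase, and Bckdha, a subunit of the committing dehydrogenase, differed by 1.55 ± 0.12, 1.51 ± 0.11 and 1.79 ± 0.12. The mitochondrial carrier Slc25a44, which imports these amino acids, differed by 0.89. The aminotransferases that start the pathway, Bcat1 and Bcat2, were the members higher in iWAT, at −2.36 and −0.51. In a fit of all 40 libraries Bcat2 was not called (−0.49, adjusted p = 0.088).

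Of the genes named in UCP1-independent heat production, creatine and calcium cycling, 15 of 18 were tested. Of these 6 were higher in BAT and 3 higher in iWAT, or 4 in each with library totals as the only scaling. The shares over all tested genes were 29.2% and 30.6%. Slc6a8, the creatine transporter, was at 57.1, 62.2, 58.9, 46.1 and 73.8 CPM in BAT and at 9.17, 15.3, 20.8, 17.6 and 16.0 CPM in iWAT, a difference of 1.92 ± 0.20 (adjusted p = 1.33e-05). Alpl, a phosphatase placed in the creatine cycle, differed by 1.89 ± 0.13. The creatine synthesis genes Gatm and Gamt were higher in iWAT at −0.94 and −1.30, and the creatine kinase Ckb was not called at 0.13. The calcium release channels Itpr2 and Itpr1 were higher in BAT at 3.02 ± 0.22 and 1.66 ± 0.14. The list also holds muscle genes, whose levels moved with the muscle markers. Without both libraries of number 3, 10 members were higher in BAT and 3 in iWAT, in a fit where all 15 muscle markers were higher in BAT.

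Genes from the adrenergic receptor to cyclic AMP were higher in BAT at 16 of 26 members and higher in iWAT at 6, with a median of 0.63. The shares over all tested genes were 29.2% and 30.6%. With library totals as the only scaling the list counts were 9 and 10, beside 1417 and 11561 of 16404 tested genes. The β1 receptor Adrb1, chosen for comment after its values were seen, had means of 35.7 CPM in BAT and 5.18 CPM in iWAT and differed by 2.79. Per unit of exon length it made up 16.8% ± 4.72 of Adrb1 and Adrb3 in BAT and 1.58% ± 0.731 in iWAT (SD, n = 5 each; exact permutation p = 0.00794, adjusted p = 0.00882). The α1A receptor Adra1a was at 58.8, 71.0, 38.8, 36 and 50.0 CPM in BAT and at 8.28, 9.62, 9.81, 9.57 and 8.89 CPM in iWAT, a difference of 2.46 ± 0.18 (adjusted p = 7.68e-07). The α1B and α2A receptors, Adra1b and Adra2a, were higher in iWAT at −3.72 and −3.60.

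Downstream of the receptors, Gnas, the stimulatory G protein, was at 2110, 2740, 2080, 1990 and 2120 CPM in BAT and 610, 730, 783, 707 and 613 CPM in iWAT, a difference of 1.68 ± 0.13 (adjusted p = 9.03e-07). Gnai1, an inhibitory G protein, went the other way, at 45, 39.9, 34.3, 47.3 and 33.5 CPM in BAT and 108, 174, 155, 174 and 157 CPM in iWAT, a difference of −1.94 ± 0.15 (adjusted p = 1.31e-06). Neither gene overlapped between the tissues. The adenylyl cyclase Adcy3 was higher in BAT at 1.84 ± 0.09, and Adcy5 higher in iWAT at −2.90. The protein kinase A regulatory subunit Prkar2b was higher in BAT at 1.62.

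Thyroid hormone genes contributed a few members. Dio2, the deiodinase that makes active hormone inside brown adipocytes, was at 8.38, 30.0, 14.4, 13.3 and 5.12 CPM in BAT and at 0.698, 0.234, 0.592, 0.370 and 0.287 CPM in iWAT. It varied widely within BAT and did not overlap with iWAT, with a difference of 5.02 ± 0.53 (adjusted p = 1.95e-05). The receptor Thrb was higher in BAT at 1.31 ± 0.15. The glucocorticoid receptor Nr3c1 was higher in iWAT at −0.66 ± 0.13 (adjusted p = 0.00101). Of 8 tested members 3 were higher in BAT and 1 higher in iWAT, or 3 and 4 with library totals as the only scaling. The shares over all tested genes were 29.2% and 30.6%.

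White adipocyte genes were mostly higher in iWAT, 14 of 18 tested against 3 higher in BAT, with a median of −2.28. The shares over all tested genes were 30.6% and 29.2%. Lep, leptin, was at 46.5, 63.6, 120, 115 and 55.3 CPM in BAT and at 135, 330, 438, 483 and 164 CPM in iWAT. The groups came close but did not overlap, and the difference was −1.95 ± 0.42 (adjusted p = 0.00214). Retn, resistin, was at 37.5, 25, 41.6, 75.5 and 18.6 CPM in BAT and at 479, 812, 723, 651 and 482 CPM in iWAT, a difference of −3.99 ± 0.38 (adjusted p = 8.09e-06). Nnat, an imprinted gene for a small proteolipid, was at 11.5, 10.6, 13.7, 37.4 and 7.92 CPM in BAT and at 176, 1010, 603, 704 and 761 CPM in iWAT, a difference of −5.33 ± 0.60 (adjusted p = 3.20e-05). BAT 4 held the most Retn and the most Nnat of its group, and it was also the BAT library with the most Adrb3.

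Agt, angiotensinogen, was at 1.39, 0.613, 1.41, 1.75 and 0.880 CPM in BAT and at 14.5, 25, 24.0, 22.7 and 18.0 CPM in iWAT, a difference of −4.11 ± 0.29 (adjusted p = 6.51e-07). In thermoneutral eWAT, on the scale of all 40 libraries, Agt averaged 221 ± 41.6 CPM, Retn 627 ± 93.0 CPM and Nnat 436 ± 211 CPM (SD, n = 5 each). The amino acid transporter Slc7a10, a white adipocyte surface protein, differed by −4.79. Trim14 and Adamts2, list members of less defined role in fat, differed by −2.81 ± 0.24 and −2.52 ± 0.22. The members higher in BAT were Nrip2, Fgf1 and Vldlr, at 1.12, 1.35 and 1.35. Of 12 genes expressed in both kinds of adipocyte 2 were higher in BAT, or 1 without BAT 5 or without iWAT 5. A further 5 were higher in iWAT and 5 were not called, beside 29.2% and 30.6% higher in BAT and iWAT over all tested genes. The counts for these 12 genes were 1 and 10 with library totals as the only scaling, and their median moved from −0.16 to −0.94. Among the 12 genes Adipoq, adiponectin, was higher in iWAT at −0.83 ± 0.17 (adjusted p = 0.00134). That gene was called in the 10-library fit and not in a fit of all 40 libraries.

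Secreted hormones followed. Of 13 tested adipokines 8 were higher in iWAT and 1 higher in BAT, with a median of −1.93. Cfd, the complement factor adipsin, was at 1420, 866, 1000, 1100 and 1390 CPM in BAT and at 5700, 9410, 7030, 6540 and 9730 CPM in iWAT, a difference of −2.73 ± 0.20 (adjusted p = 9.22e-07). Nampt, a NAD-producing enzyme that is also secreted, was the member higher in BAT at 1.87 ± 0.12. Of 17 tested factors described as secreted by brown fat 6 were higher in BAT and 8 higher in iWAT. Over all tested genes 29.2% and 30.6% were, so single members are described and not a shift of the list. Vegfa, the angiogenic factor, was higher in BAT at 1.48 ± 0.10 (adjusted p = 5.91e-07), whereas Igf1 and Wnt10b, an inhibitor of fat formation, were higher in iWAT at −2.21 ± 0.18 and −6.17 ± 0.34.

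Genes proposed as beige adipocyte markers were higher in iWAT at 7 of 12 tested members and higher in BAT at 5. The shares over all tested genes were 30.6% and 29.2%. Tmem26 was at 0.0869, 0.0557, 0.0475, 0 and 0.160 CPM in BAT and at 3.74, 2.39, 1.96, 2.03 and 3.16 CPM in iWAT, a difference of −5.26 ± 0.52 (adjusted p = 8.07e-06). Klhl13 differed by −2.55 ± 0.16, Tnfrsf9 by −3.31 and Tbx1 by −3.15. With the mean level of the lymphocyte markers as a covariate, which cannot be told apart from the tissue, 2 members were higher in BAT and 3 in iWAT, and the median of the list was 0.41 in place of −2.55. In that fit Tnfrsf9 and Tbx1 were not called, at 0.54 and −0.83, and Klhl13 was at −3.09. Without iWAT 1 and iWAT 5 Tnfrsf9, Tbx1 and Klhl13 were all called, at −2.3, −2.9 and −2.68. The members higher in BAT, Slc6a8, Kcnk3, P2rx5, Aqp7 and Cd81, include genes that the brown adipocyte and creatine lists also hold, and Cd81 moved from 0.54 to −0.25 with library totals as the only scaling.

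Extracellular matrix genes were higher in iWAT at 23 of 28 members and higher in BAT at 3, with a median of −1.81, beside 30.6% and 29.2% over all tested genes. Fn1, fibronectin, was at 29.1, 21.9, 24.2, 24.1 and 17.8 CPM in BAT and at 355, 412, 311, 572 and 371 CPM in iWAT, a difference of −4.11 ± 0.20 (adjusted p = 5.58e-08). Col14a1 differed by −3.77 ± 0.23, Mfap5 by −3.35 ± 0.26 and Fbn1, fibrillin, by −2.87 ± 0.18. The fibrillar collagens Col1a1, Col1a2 and Col3a1 differed by −2.52, −2.56 and −2.42. The members higher in BAT were Col8a1, Col12a1 and Mgp, at 0.76, 1.91 and 1.35, and Col8a1 stood at −0.03 with library totals as the only scaling.

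Progenitor and fibroblast genes had the same side, with 12 of 17 higher in iWAT and 3 higher in BAT, beside 30.6% and 29.2% over all tested genes. Dpp4, a surface peptidase of interstitial progenitors, was at 1.04, 0.873, 1.42, 0.957 and 1.25 CPM in BAT and at 50.7, 39.5, 29.4, 47.0 and 45.3 CPM in iWAT, a difference of −5.25 ± 0.20 (adjusted p = 1.46e-08). Pi16, a marker of the same progenitors, was at 4.56, 2.54, 5.94, 3.05 and 2.11 CPM in BAT and at 82.4, 156, 131, 229 and 147 CPM in iWAT, a difference of −5.35 ± 0.38 (adjusted p = 1.03e-06). Wnt2 differed by −6.18 ± 0.36 and Anxa3 by −2.28 ± 0.14. Pdgfra, the general receptor of adipose progenitors, differed by −1.77. The members higher in BAT were Dlk1, F3 and Pdgfrb, at 1.57, 1.19 and 0.58, and Pdgfrb stood at −0.21 with library totals as the only scaling. No cell counts accompany these libraries, so the progenitor share of each tissue was not measured.

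Among growth factor genes 14 of 24 were higher in iWAT and 4 higher in BAT, with a median of −1.13, beside 30.6% and 29.2% over all tested genes. Igfbp6 and Igfbp4, binding proteins of insulin-like growth factors, were higher in iWAT at −4.18 ± 0.21 and −3.35 ± 0.19. Bmp7, a growth factor that promotes brown fat formation, was at 0.195, 0.260, 0.206, 0.137 and 0.187 CPM in BAT and at 3.39, 5.11, 3.66, 7.01 and 5.91 CPM in iWAT. Its transcripts were thus scarce in BAT, and the difference was −4.65 ± 0.28 (adjusted p = 1.93e-07). Akt2, Igf2, Grb14 and Gdf5 were the members higher in BAT, at 0.48, 1.23, 1.25 and 2.69, and the call of Akt2 was lost without iWAT 5 (adjusted p = 0.0702) and without both iWAT 1 and iWAT 5 (0.23, adjusted p = 0.0673), and its sign turned with library totals as the only scaling (−0.30). Sfrp2, a Wnt-binding protein named by its small p, was higher in iWAT at −5.08 ± 0.20, and Adgrd1, an adhesion receptor, at −5.02 ± 0.18.

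All 10 macrophage markers were higher in iWAT, with a median of −2.24, and their summed level ran from 168 to 240 CPM in BAT and from 771 to 1330 CPM in iWAT. Several immune genes named by the rule were even across the iWAT libraries. Cd209f, a lectin of tissue macrophages, was at 0.369, 0.502, 0.744, 0.501 and 0.373 CPM in BAT and at 35.4, 41.9, 35.8, 38.3 and 33.9 CPM in iWAT, a difference of −6.19 ± 0.19 (adjusted p = 1.05e-08). Il1r2, the decoy interleukin-1 receptor, was at 14.8, 21.4, 14, 23.7 and 23.3 CPM in iWAT and no more than 0.152 CPM in BAT, a difference of −7.55 ± 0.29 (adjusted p = 1.63e-08). F13a1, a factor XIII subunit made by macrophages, Cbr2 and Cd209g differed by −4.38 ± 0.15, −3.65 ± 0.14 and −5.67 ± 0.22. In eWAT at thermoneutrality Cd209f averaged 18.8 ± 4.31 CPM and Il1r2 0.153 ± 0.192 CPM (SD, n = 5 each, scale of all 40 libraries).

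Others varied widely among iWAT libraries. Marco, a scavenger receptor, was at 47.2, 12.6, 11.8, 0.569 and 15.7 CPM in iWAT and no more than 0.0800 CPM in BAT, a difference of −8.43 ± 1.20 (adjusted p = 0.000178). Apol7c was at 85.1, 21.7, 6.60, 2.72 and 36.6 CPM in iWAT, a difference of −7.22 ± 1.04 (adjusted p = 0.000218). The B lymphocyte attractant Cxcl13, the lectin Cd209b, the phosphatidylserine receptor Timd4 and Nsg2 differed by −6.88 ± 0.62, −7.75 ± 0.55, −6.12 ± 0.59 and −6.09 ± 0.84. Without iWAT 1 the differences of Marco, Apol7c and Nsg2 were −7.66, −6.38 and −5.48, and without BAT 5 that of Nsg2 was −7.14. In all 6, iWAT 1 was highest and iWAT 4 lowest, the order of the lymphocyte markers, of which Cd79a stood at 201, 59.4, 42.3, 7.82 and 123 CPM. With the lymphocyte markers as a covariate the differences of Marco, Apol7c and Nsg2 were −1.79, −0.02 and −1.71 and none of these 3 was called. In that fit Cxcl13, Cd209b and Timd4 were still called, at −3.27, −4.68 and −2.8 (adjusted p = 0.0065, 0.000179 and 0.0297), and so was Cd209f at −6.54. Over all genes that fit called 3970, and leaving out iWAT 1 and iWAT 5 in place of a covariate left 9493. That covariate ran from −0.403 to 1.22 in BAT and from 2.98 to 6.38 in iWAT (mean log2 CPM), without overlap, so it and the tissue cannot be told apart. The inguinal depot contains a lymph node, and whether it was left in the samples is not given in the sources used here.

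**Figure D5:**
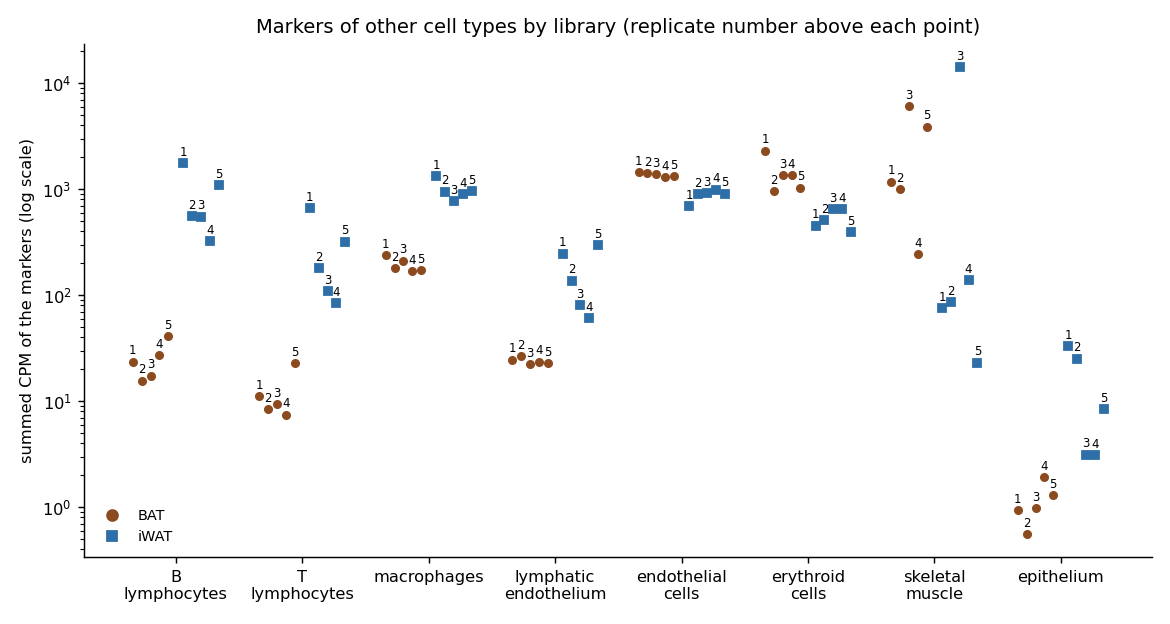
Summed CPM of the markers of 8 other cell types in each library (log scale), with BAT as brown circles, iWAT as blue squares and the replicate number above each point. B and T lymphocyte markers are higher in every iWAT library, the endothelial and erythroid sums are higher in every BAT library, and muscle markers reach 14100 CPM in iWAT 3.

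Endothelial and erythroid markers leaned to BAT on the TMM scale, where 29.2% of all tested genes were higher in BAT. Of 12 endothelial markers 7 were higher in BAT and 0 higher in iWAT, with 1 and 6 under library totals as the only scaling, and their summed level ran from 1290 to 1440 CPM in BAT and from 693 to 990 CPM in iWAT. The endothelial median was 0.51, or −0.28 with library totals, where that of all tested genes was −0.81. Cdh5, the junction protein of endothelium, differed by 1.04 ± 0.12 (adjusted p = 2.22e-05). Rgs5, a pericyte gene, differed by 1.40 ± 0.12. Pericyte and smooth muscle markers did not share 1 direction, with 3 of 8 higher in BAT, 1 higher in iWAT and 4 not called. With library totals their counts were 1 and 4. All 5 tested erythroid markers were higher in BAT, with Hbb-bs at 1.42 ± 0.24 (adjusted p = 0.000445). Lymphatic markers were higher in iWAT at 5 of 6, and Ccl21a, their most abundant, was at 179, 83.1, 31.6, 3.16 and 240 CPM in iWAT, again highest in libraries 1 and 5.

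Muscle transcripts varied between the libraries of each tissue. Myh4, the myosin of fast glycolytic fibres, was at 365, 302, 1700, 67.5 and 946 CPM in BAT and at 16.5, 9.07, 4500, 33.8 and 0.0131 CPM in iWAT, and was not called (−0.43 ± 2.00, adjusted p = 0.869). Without iWAT 3 its difference was 5.49. Of 15 muscle markers 3 were called, all higher in BAT, and these were Myh7, Myh2 and Mb, which mark oxidative fibres, named after their values were seen. The call of Mb was lost without iWAT 1 and iWAT 5 (4.23, adjusted p = 0.0565). Without both libraries of number 3 all 15 were called higher in BAT. Epithelial markers reached 33.3 CPM in iWAT and 1.94 CPM in BAT, and Krt5 was at 10.3 CPM in iWAT 2 with 0 counts in all BAT libraries. The marker lists that follow hold few tested genes, so their counts describe single markers. The shares over all tested genes were 29.2% higher in BAT and 30.6% higher in iWAT. Of the tested epithelial markers 4 of 5 were higher in iWAT. Higher in iWAT were also 2 of 5 neutrophil (1 without any single one of BAT 2, BAT 3, BAT 4, BAT 5 and iWAT 1, and 0 without both iWAT 1 and iWAT 5), 3 of 7 Schwann cell, 3 of 4 neuronal, 2 of 3 mesothelial and the 1 tested epididymal marker, and 1 of 8 pericyte markers, while 1 Schwann cell, 1 mesothelial and 3 pericyte markers were higher in BAT.

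Some iWAT genes belonged to no list of adipocytes or immune cells. Cyp2e1, a cytochrome P450 known from liver, was at 1290, 1260, 606, 743 and 1460 CPM in iWAT and at 53.3, 39.8, 29.2, 68.1 and 75.4 CPM in BAT, a difference of −4.33 ± 0.35 (adjusted p = 2.14e-06). Hepatocyte markers as a list were called higher in iWAT at 2 of 9, at 4 without BAT 1, and at 1 without BAT 2, BAT 3, BAT 4 or iWAT 2, or without both libraries of number 3. The share over all tested genes was 30.6%, so no shift of the hepatocyte list is described. Alb, albumin, was not called at −1.85, but was called without BAT 1 (−2.37, adjusted p = 0.0285) and without BAT 5 (−1.54, adjusted p = 0.0275). In thermoneutral eWAT Cyp2e1 averaged 1370 ± 524 CPM (SD, n = 5, scale of all 40 libraries). The major urinary protein genes Mup22 and Mup11 differed by −6.21 ± 0.43 and −6.54 ± 0.60. They belong to a family of near-identical copies, so the division of reads among members is uncertain.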

How the data were processed

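RNA of 10 libraries, 5 of thermoneutral BAT and 5 of thermoneutral iWAT, was analysed from a table of 40. The deposited values are expected counts per gene symbol, whole numbers without normalization. Per the submitters' processing notes FastQC, STAR 2.7.8a, RSEM 1.3.0 and DESeq were used and the builds GRCm39 and GRCm38 are named, without a role for either. Per the labels' protocols the library kit was TruSeq RNA v2, which does not keep the strand, so reads of overlapping and antisense genes cannot be told apart. Near-identical genes share sequence, so the division of their reads is uncertain as well. The annotation and filters are not given in the sources used here. Replicates were not pooled, and 0 columns lacked a sample.

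The table had 260093 lines for 53863 symbols, of which 50086 matched GENCODE M21 gene names. A symbol shared by several genes stood on repeated lines, which concerned 78 symbols, and their genes were summed. Counts were tested in R 4.3.3 with edgeR 4.0.16 with glmQLFit (robust) and glmQLFTest, after filterByExpr (minimum count 10, minimum total 15) and TMM scaling, with Benjamini-Hochberg adjustment over 16404 genes. TMM factors ran from 0.712 to 0.795 in BAT and from 1.23 to 1.43 in iWAT. The biological coefficient of variation was 30.7%. Differences past 2-fold were tested with glmTreat. Floors for genes with 0 counts use 3 counts over the 5 libraries of a group, and intervals and floors cover counting error only. Shares were compared by exact permutation tests in Python 3.11.15 with scipy 1.17.1. Exon length for gene pairs is the union of all GENCODE M21 exons of a gene, which can exceed the transcript expressed. The labels do not say that equal replicate numbers mark 1 mouse, so no block entered the fit. Promoter sequences are RefSeq's on GRCm38.p6. Nuclear copies of mitochondrial genes were pseudogenes with at least 20% of their 31-base words in mitochondrial transcripts. The scripts were tested on simulated data.

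The members, 25 gene lists and 15 cell type marker lists were chosen with earlier results of these data known. Genes were named by rule: the 12 largest and 8 smallest-p genes past 2-fold in each direction with a mean of at least 10 CPM in the higher tissue, no overlap, no predicted gene and no cell type marker; up to 4 members of smallest p per list; of each marker list the member with the highest level; and a set of 25 genes of interest. Other list members were named after their values were seen, and a few genes are not reported here. Alternatives were 3 scalings (DESeq2's size factors, library totals, and TMM without mitochondrial genes), 2 filters, DESeq2 1.42.0 and limma-voom (limma 3.58.1), all 40 libraries in the fit, a replicate block, lymphocyte and muscle markers as covariates, and leaving out each library. Leaving out both libraries of number 3, or iWAT 1 and iWAT 5, was chosen after seeing the data.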

Additional observations from a re-analysis of the deposited data

Results flagged for a closer look

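Within the 432 groups of 5 libraries formed by the 216 genes named, 30 held a library whose gap to its nearest neighbour passed Dixon's 95% limit, and chance alone passes it in about 1 in 20 groups. The causes were not tested.

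Library iWAT 3, which had the most skeletal muscle transcripts, held 7 of these values, each the highest of its group. They were Myh4 at 4500 CPM (next library 33.8), Cox6a2 at 24.3 CPM (next 2.12), Mb at 4.68 CPM (next 1.08), Fabp3 at 4.32 CPM (next 0.653) and Me3 at 3.55 CPM (next 1.39). Zic1 at 0.151 CPM (next 0.0261) stood out there as well, as did Tcf21 at 0.0252 CPM with 0 counts in the other iWAT libraries.

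Library iWAT 1, which had the most lymphocyte transcripts, held the highest Ucp1 of its group at 6.09 CPM (next 1.35). It also held the lowest mt-Cytb at 7560 CPM, Gpat4 at 89.2 CPM, Gnai1 at 108 CPM, Nrip1 at 65.3 CPM and Hoxa7 at 12.9 CPM. In library iWAT 2 Pnpla2 was at 1890 CPM (next 1200) and Krt5 at 10.3 CPM (next 0.512), and in iWAT 5 Gata6 was at 10.5 CPM (next 7.68).

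Library BAT 1 held the highest Hbb-bs at 972 CPM (next 564), Irx2 at 1.3 CPM (next 0.269), Irx1 at 0.413 CPM (next 0.0557), Adra2a at 0.304 CPM (next 0.149) and Mup22 at 1.95 CPM (next 0.839). It held the lowest Kng2 at 83.1 CPM (next 119) and Akt2 at 397 CPM (next 454). In BAT 4 Nnat was at 37.4 CPM (next 13.7) and Elovl3 at 26.8 CPM (next 8.2). In BAT 5 Cd79a was at 4.46 CPM (next 1.26), Nsg2 at 0.534 CPM (next 0.0950) and Hoxa10 at 0.0267 CPM, its single count in BAT. Gnas was highest in BAT 2 at 2740 CPM (next 2120) and Igf2 in BAT 3 at 21.5 CPM (next 17.1).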

How the results depend on the processing

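Leaving out 1 library gave 9344 to 9899 called genes, 4494 to 4805 higher in BAT, 4832 to 5094 higher in iWAT, 3090 to 3495 past 2-fold and a mitochondrial share 17.4 to 19.7 points higher in BAT (18.8 with all). DESeq2's size factors gave 9807 calls, DESeq2 itself 10098, limma-voom 9705, no filter 10591, all 40 libraries 9814, TMM without mitochondrial genes 9794, the muscle covariate 7844, no libraries of number 3 9169, and no iWAT 1 and 5 9493. Library totals as the only scaling gave 1417 genes higher in BAT, 11561 higher in iWAT and 4908 past 2-fold. A minimum of 5 CPM in 5 libraries left 1708 past 2-fold, with fewer genes tested. With lymphocyte markers as a covariate 3970 were called, 1944 higher in BAT and 2026 in iWAT, and 1370 past 2-fold, and that covariate separates the tissues by itself. The replicate block gave 9837 calls, 4841 higher in BAT, called Fasn (adjusted p = 0.002) and Acly (0.0181), lost Hoxd4 (0.0692) and gave 11 fatty acid synthesis genes higher in BAT and 3 in iWAT. Libraries of the same number correlated in their deviations at 0.08, 0.09, 0.55, 0.24 and 0.05, and those of different numbers at −0.401 to 0.293. BAT and iWAT libraries were not treated as pairs because the labels do not pair them, and whether they are pairs was not tested.

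With library totals the sign turned for Lhx8 (−0.14), Fabp4 (−0.66), Acly (−0.11), Akt2 (−0.30), Cd81 (−0.25), Cebpa (−0.69), Ckb (−0.68), Col8a1 (−0.03), Ehhadh (−0.52), Fasn (−0.01), Hoxb3 (−0.52), Nfia (−0.47) and Pdgfrb (−0.21). With the lymphocyte covariate it turned for Acly (−0.49), Akt2 (−0.47), Ccl21a (2.34), Cd79a (0.80), Cebpa (−0.96), Col8a1 (−0.49), Cox6a2 (−0.27), Dlk1 (−0.55), Ehhadh (−0.32), Epsti1 (0.05), Fabp4 (−0.35), Fasn (−0.74), Fgf1 (−0.14), Nfia (−0.42), Nrip2 (−0.00), Pdgfrb (−0.15), Pparg (−0.04) and Tnfrsf9 (0.54), and 47 further calls were lost. With the muscle covariate it turned for Cebpa (−0.05), Ckb (−0.03) and Cox6a2 (−0.75). Without iWAT 1 and 5 it turned for Cebpa (−0.17) and Fabp4 (−0.02), and without both libraries of number 3 for Acsl1 (0.02) and Myh4 (4.8). Myh4 was 3.71 with the replicate block, 4.89 in limma-voom and 5.49 without iWAT 3. Leaving out 1 library gave ranges that cross 0 for Acsl1 (−0.28 to 0.02), Cebpa (−0.06 to 0.18), Ckb (−0.04 to 0.26), Hoxa7 (−0.23 to 0.05) and Myh4 (−1.11 to 5.49). The fit of all 40 libraries lost Adrb3 (adjusted p = 0.0759), Hoxb6 (0.261), Hoxc6 (0.165) and Hoxd4 (0.198) and called Nfia (0.0436). The muscle covariate lost Adrb3, Akt2, Myh2, Myh7 and Pparg. Limma-voom lost Marco (0.0582), Myh7 (0.0592) and Hoxd4 (0.0562) and called Alb (0.0294), and DESeq2 called Alb (0.0267), Fasn (0.0495) and Lhx8 (0.0404). With the lymphocyte covariate 0 endothelial and 0 erythroid markers were called, and of the adrenergic genes 6 were higher in BAT and 2 in iWAT. The causes were not tested.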
